A study of Mus musculus with 14 samples.

Results

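TAF9B peaks that lay over POL2 at the ends of genes were examined in motor neuron-enriched embryoid bodies (EB-MN) made from mouse embryonic stem (ES) cells. A TAF9B peak was taken when it shared at least 1 bp with a peak of RNA polymerase II (POL2) and its midpoint was within 500 bp of either end of a gene locus in the RNA-seq table of day 6 embryoid bodies. By this rule 2603 of the 10415 TAF9B peaks were chosen, on positions in mouse build mm9. Because the rule used the peaks themselves, their overlap with POL2 and their closeness to a locus end are how they were selected and not results.

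TAF9B is a histone-fold subunit found in TFIID, the complex of TBP and its associated factors (TAFs) that loads POL2 onto core promoters, and in SAGA-type coactivators that carry a histone acetyltransferase. It is closely related to TAF9, which most cells use. A core promoter is the stretch around a transcription start where these factors and POL2 assemble, and in mammals many of them sit in CpG islands, which are rich in G, C and the dinucleotide CpG.

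ChIP-seq for TAF9B and for POL2 (antibody 8WG16) was made from wild-type (WT) EB-MN differentiated for 8 days from the HBG3 line, a C57BL/6-labelled ES line with a GFP reporter for motor neurons, with 1 library for each antibody. RNA-seq was made from polyadenylated RNA of 11 libraries, 1 for each condition. These were undifferentiated ES cells and embryoid bodies at days 2, 4 and 6, each as WT (JM8 cells) and labelled Taf9b KO (TAF9B -/-, clone BG10), newborn spinal column from WT and KO mice, and newborn spinal cord from WT mice, all C57BL/6. The KO allele of Taf9b, which is on the X chromosome, has its coding exons exchanged for LacZ-Neo. Embryoid bodies were patterned with retinoic acid and the smoothened agonist SAG. The KO line is 1 clone, embryoid bodies are mixtures of cells, and the ChIP-seq and RNA-seq cells differ in line and day. No condition was replicated and each WT and KO-labelled pair was read by itself. No test between conditions was made, and 95% Wilson intervals given below cover counting error only.

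Taf9b did not follow its labels in the cultured cells. Its level was 0.537 FPKM in the WT and 3.06 in the KO-labelled ES library, 0.516 and 4.08 at day 2, 1.96 and 4.27 at day 4, and 1.37 and 4.01 at day 6. Thus it was higher in the library labelled KO in all 4 cultured pairs. In spinal column it was lower in the library labelled KO, at 3.31 against 6.65 FPKM, and it was 7.44 FPKM in WT spinal cord. Directions below are therefore given by label only.

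The sequences under the peaks are shown first, for the 3 genes that the study used as ChIP examples and that carried such a peak, and for the 5 peaks with the highest TAF9B score. The score is the number that the peak caller MACS assigned to each peak, which ran from 50.1 to 679.4 over the 2603 peaks. Each sequence is read 5' to 3' from mm9 on the strand of the nearest annotated start and stops 30 bases after it. Capitals mark the short promoter motifs searched for, each in either orientation. Tubb3 encodes a neuronal tubulin, Hes6 a bHLH protein of the Notch pathway in neurogenesis and Ccnc cyclin C, a partner of the mediator kinase.
Tubb3 (chr8:125935189-125935353, plus strand): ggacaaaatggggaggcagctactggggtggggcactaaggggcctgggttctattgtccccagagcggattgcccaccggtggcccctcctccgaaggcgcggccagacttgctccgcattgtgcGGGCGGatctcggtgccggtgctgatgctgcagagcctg
Hes6 (chr1:93309770-93310017, minus strand): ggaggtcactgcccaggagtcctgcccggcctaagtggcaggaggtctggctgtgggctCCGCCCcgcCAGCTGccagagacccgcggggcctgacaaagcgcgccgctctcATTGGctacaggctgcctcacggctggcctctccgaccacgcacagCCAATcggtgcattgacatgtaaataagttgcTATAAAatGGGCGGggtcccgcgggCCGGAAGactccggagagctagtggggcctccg
Ccnc (chr4:21654693-21654877, plus strand): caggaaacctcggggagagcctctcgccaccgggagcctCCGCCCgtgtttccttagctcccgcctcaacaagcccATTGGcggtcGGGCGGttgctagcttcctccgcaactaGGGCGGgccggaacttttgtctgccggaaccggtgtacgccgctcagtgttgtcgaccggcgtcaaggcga
Spag5 encodes a mitotic spindle protein, Asb3 an ankyrin-repeat protein with a SOCS box, Erlec1 a lectin of the endoplasmic reticulum, Fbf1 a ciliary protein and Slc2a6 a sugar transporter. Their peaks were printed, with that of A430033K04Rik, because they held the 5 highest scores. The score was 679.4 at Spag5, 581.0 at the peak that Asb3 and Erlec1 share, 552.4 at Fbf1, 523.2 at A430033K04Rik and 513.2 at Slc2a6.
Spag5 (chr11:78114895-78115060, plus strand): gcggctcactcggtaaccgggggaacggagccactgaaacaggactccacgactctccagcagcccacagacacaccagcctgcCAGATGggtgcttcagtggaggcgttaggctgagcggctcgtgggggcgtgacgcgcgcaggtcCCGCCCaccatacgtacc
Asb3 and Erlec1 (chr11:30854314-30854477, plus strand): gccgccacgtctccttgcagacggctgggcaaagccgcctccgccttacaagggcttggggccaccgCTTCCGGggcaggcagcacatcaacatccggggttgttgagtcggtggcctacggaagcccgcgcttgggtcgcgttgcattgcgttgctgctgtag
Fbf1 (chr11:116029433-116029602, minus strand): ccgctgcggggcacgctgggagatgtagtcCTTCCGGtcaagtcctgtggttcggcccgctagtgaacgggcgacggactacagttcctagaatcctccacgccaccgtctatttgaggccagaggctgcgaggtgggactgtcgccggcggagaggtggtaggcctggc
A430033K04Rik (chr5:139063980-139064133, plus strand): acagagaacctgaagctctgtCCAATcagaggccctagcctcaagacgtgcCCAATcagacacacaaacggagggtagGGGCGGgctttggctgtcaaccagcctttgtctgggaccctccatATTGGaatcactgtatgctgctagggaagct
Slc2a6 (chr2:26883489-26883692, minus strand): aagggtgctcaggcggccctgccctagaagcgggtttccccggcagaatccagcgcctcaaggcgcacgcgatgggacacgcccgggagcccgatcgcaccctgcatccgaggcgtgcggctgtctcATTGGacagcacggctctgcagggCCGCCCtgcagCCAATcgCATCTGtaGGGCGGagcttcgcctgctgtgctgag

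The 8 stretches shared base composition more than motifs. GC content was 64.7 to 68.1% in 7 of them and 54.5% at A430033K04Rik, which also held 3 CpG against 10 to 20 in the others. The Hes6 stretch held the most kinds of motif. It has CCAAT boxes, the site of NF-Y, on both strands, a TATAAA element between boxes of the SP1 family (GGGCGG), and an ETS site (CCGGAAG). An E-box (CAGCTG) lay further upstream. Tubb3 held a single GGGCGG, just upstream of the start, and none of the other motifs searched. Asb3 and Fbf1 shared CCGGAAG in reverse orientation as their only match. A430033K04Rik and Slc2a6 held 3 and 2 CCAAT boxes.

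The study's own ChIP-qPCR amplicons could be placed on these peaks. The Ccnc promoter primers (gctagcttcctccgcaacta and agactggctgggctgaact) bound chr4:21654787-21654936, and all 150 bp lay inside the Ccnc peak, whose score was 246.2. The Tubb3 promoter primers (cagacttgctccgcattgt and cctcgctggctgatgtaag) bound chr8:125935294-125935408, 115 bp inside the Tubb3 peak of score 201.6. The Hes6 amplicon lay elsewhere, in a further TAF9B-POL2 peak (score 105.6) whose midpoint was 922 bp from the nearest locus end, while the Hes6 promoter peak itself scored 108.3. The other example genes had no peak of this kind. The Mnx1 promoter peak overlapped POL2 with a score of 291.6 but its midpoint was 534 bp from a locus end. The amplicon of Neurog2 fell in a TAF9B peak without POL2, as did part of that of Lhx4.

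Peaks of this kind were stronger and wider than TAF9B peaks without POL2. Their median score was 104.9 (quartiles 70.6 and 164.4), against 99.6 for the 866 TAF9B-POL2 peaks away from gene ends, 91.1 for the 1255 TAF9B-only peaks at gene ends and 72.8 for the 5691 TAF9B-only peaks away from them. Their median width was 252 bp, with a range of 103 to 687 bp, and that of TAF9B-only peaks was 230 bp at gene ends and 199 bp away. The ranges of score overlapped throughout, and the highest score of all, 3100, belonged to a TAF9B-only peak away from gene ends. Within the set, score followed width (Spearman rho 0.79, n = 2603 peaks of 1 library) and hardly followed the score of the POL2 peak beneath (rho 0.04).

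The overlap with POL2, on which the peaks were chosen, was mostly complete. The TAF9B peak lay wholly inside POL2 in 2346 of 2603 cases (90.1%), where the POL2 peaks were wider, with a median of 718.5 bp. Of these POL2 peaks, 2346 held 1 such TAF9B peak, 127 held 2 and 1 held 3. POL2 peaks at gene ends that overlapped TAF9B had a median score of 173.8, and the 3644 that did not had 129.2. When the 6122 POL2 peaks at gene ends were divided into 4 equal groups by score, 30.7% (28.4 to 33.1) of the lowest group overlapped TAF9B, then 36% and 44.4%, and 50.8% (48.3 to 53.3) of the highest.

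The rule took either end of a locus, and of these ends nearly all were near a start. An annotated GENCODE transcription start was within 500 bp of the midpoint of 2544 of 2603 peaks (97.7%, 97.1 to 98.2). The share was 92% (90.3 to 93.3) for TAF9B-only peaks, which were chosen by the same distance to a locus end. Of the 866 TAF9B-POL2 peaks called away from gene ends, 394 (45.5%, 42.2 to 48.8) also had such a start within 500 bp. Of the 2603 peaks, only 17 had a transcript end but no start within 500 bp, and 42 had neither. The 17 included the peak between Mov10 and Rhoc with a score of 315.4, that of Sec14l2 at 256.3 and that of Gjd3 at 234.9. The 42 without either were led by peaks at Zfp862-ps, D130040H23Rik and Gm10033, and their identity beyond the deposited locus was not examined.

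TAF9B was centred just upstream of the start and POL2 just downstream. The TAF9B midpoint was a median of 25 bp upstream of the nearest start (quartiles -65 and 4 bp), and it was upstream in 1814 of 2544 peaks (71.3%, 69.5 to 73). It was within 100 bp of the start in 79.1%. The midpoint of the POL2 peak was a median of 13 bp downstream of the same start (quartiles -68 and 89 bp). Where starts were on 1 strand only, POL2 lay downstream of TAF9B in 1427 of 2115 peaks (67.5%, 65.4 to 69.4), by a median of 50 bp over all 2115. The quartiles of this shift, -30 and 123 bp, were wide beside its median. Peak midpoints depend on the width that MACS gave each peak, and summits were not used. The peaks and the start were chosen by closeness to the TAF9B midpoint, so the narrower spread of TAF9B is partly set by that choice.

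**Figure D1:**
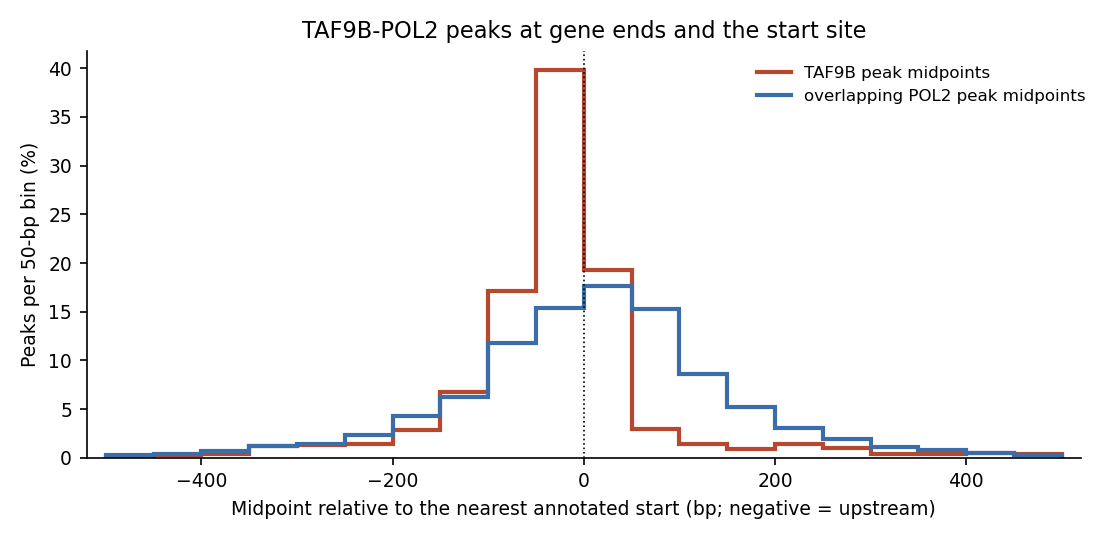
Position of TAF9B and POL2 peak midpoints relative to the nearest annotated transcription start, in bp on the strand of that start (horizontal axis, -500 to 500), against the share of peaks in each bin of 50 bp (vertical axis, percent), for the 2544 TAF9B peaks with such a start (red) and the POL2 peaks they overlap (blue). The TAF9B midpoints crowd just upstream of the start (median -25 bp) and the POL2 midpoints spread more widely around a median of 13 bp. The peaks and the start were chosen by the TAF9B midpoint, so its narrower spread is partly set by that choice.

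At 429 of the 2603 peaks (16.5%, 15.1 to 18) there were starts on both strands within 500 bp, as at divergent promoters that serve a gene in each direction. This was above the 8.76% (7.32 to 10.5) of TAF9B-only peaks at gene ends. It was about the 17.2% (16 to 18.4) of POL2 peaks at gene ends without TAF9B, whose interval overlapped. At divergent starts the TAF9B median was -12 bp and the POL2 median was -28 bp, so POL2 no longer lay downstream of the nearest start. The strongest such peak was that of Asb3 and Erlec1 (score 581.0). It was followed by Orc5, a subunit of the origin recognition complex (425.9), and by Cab39l with Setdb2 (401.7). Others were Ighmbp2 with Mrpl21 (373.6), Adprm with Sco1 (338.3) and the histone gene H4c4 (327.4).

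In the 200 bp around the peak centre, median GC content was 63.5% and the median ratio of observed to expected CpG was 0.806. GC above 50% with a CpG ratio above 0.6, a common description of CpG islands, held for 84.2% (82.7 to 85.5) of peaks. It held for 67.9% of TAF9B-only peaks at gene ends, 53% of TAF9B-POL2 peaks away from them and 13.6% of TAF9B-only peaks away. When windows of 200 bp were instead centred on starts, 87.6% (86.2 to 88.8) of the 2502 starts at these peaks met it, beside 91.7% (90.7 to 92.6) of starts at POL2 peaks without TAF9B and 48.4% of all 22349 protein-coding starts.

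Promoter motifs were counted in these start-site windows on both strands, as exact letters, with a motif that overlapped another counted for each. The ETS letters CCGGAAG were in 25.7% (24 to 27.4) of the starts at TAF9B-POL2 peaks. They were in 17.9% (16.6 to 19.2) at POL2 without TAF9B, 8.24% (6.77 to 9.99) at TAF9B-only peaks and 9.37% of all coding starts. CCAAT was in 35.5% (33.7 to 37.4) of the starts, in 24.7% (23.3 to 26.2) at POL2 without TAF9B, in 40.2% (37.4 to 43.1) at TAF9B-only peaks and in 27.3% of all. Thus CCAAT went with TAF9B peaks with or without POL2, while CCGGAAG was most frequent where both were present. The short ZNF143-type letters ACTACAATT were rare, at 1.04% (0.71 to 1.52) against 0.174% (0.0795 to 0.378) for POL2 without TAF9B and 0.286% of all coding starts.

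Most other motifs were less frequent where TAF9B joined POL2 than at POL2 without TAF9B, or alike, and CAGATG was more frequent. GGGCGG was in 56.3% (54.3 to 58.2) of the starts, beside 66.5% (64.9 to 68.1) at POL2 without TAF9B and 39.9% of all. The NRF1 letters GCGCATGCG were in 1.28% (0.907 to 1.8) beside 5.23% (4.54 to 6.03), and in 1.69% of all. The YY1 letters AAGATGGCG were in 5.6% beside 5.7%, TATAAA in 3.32% beside 3.3%, TGACGTCA, the cyclic AMP response element, in 4.24% beside 3.41%, and CACGTG, the E-box of USF, in 7.03% beside 8.7%, with overlapping intervals. For all coding starts these 4 were 1.94%, 8.17%, 1.93% and 5.53%. Letters bound by neuronal bHLH and homeodomain proteins were less frequent than at all coding starts. CAGCTG (bHLH-1) was in 10.8% of the starts and in 12.3% of all, CAGATG (bHLH-2) in 6.31% and 9.54%, and TAATTA in 0.48% and 2%. At POL2 without TAF9B they were in 9.92%, 4.31% and 0.405%. Of these, only the intervals of CAGATG were apart, 5.43 to 7.34 beside 3.68 to 5.04. GC content also differs between these sets. Its median in these windows was 64% at TAF9B-POL2 peaks, 64.5% at TAF9B-only peaks, 67.5% at POL2 without TAF9B and 59% for all coding starts. Its part in the shares was not tested.

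**Figure D2:**
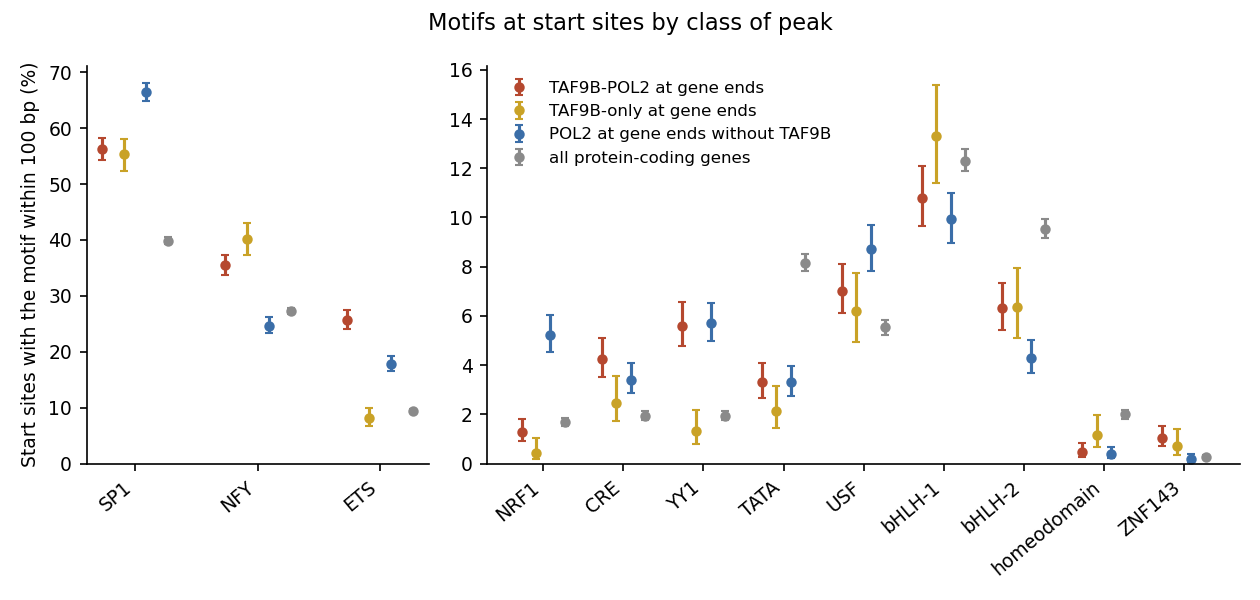
Share of 200-bp windows around transcription starts (vertical axes, percent, on separate scales for frequent and rare motifs) that hold each motif (horizontal axes), for starts at TAF9B-POL2 peaks, at TAF9B-only peaks, at POL2 peaks without TAF9B and for all protein-coding genes. Bars show 95% Wilson intervals, and USF and bHLH-1 and -2 are E-boxes. The ETS motif stands highest at TAF9B-POL2 peaks (25.7%), and the SP1 and NRF1 motifs at POL2 peaks without TAF9B (66.5% and 5.23%).

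Several motifs had a preferred side of the start at these peaks. Within 200 bp of the start, 79.6% of 1852 CCAAT matches were upstream, at a median of -56 bp, and 30 of 31 ACTACAATT matches were upstream, at -60 bp. CCGGAAG was centred at -13 bp and TATAAA at -29.5 bp, although the quartiles of TATAAA spanned -131.5 to 19.8 bp. AAGATGGCG was downstream, at a median of 26 bp with 26.8% upstream. CCAAT also varied with TAF9B score. It was in 34.1% (30.6 to 37.8) of the peaks in the lowest of 4 equal score groups, then 35% and 38.8%, and 45.2% (41.4 to 49.1) in the highest. CCGGAAG went from 23.3% (20.3 to 26.7) to 26.5% (23.2 to 30) and GGGCGG from 56.1% to 55.5%, with overlapping intervals. Of the rare motifs, GCGCATGCG went from 1.54% (0.836 to 2.8) down to 0.462% (0.157 to 1.35) and ACTACAATT from 0.614% (0.239 to 1.57) up to 1.54% (0.838 to 2.81), also with overlapping intervals.

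The peaks were not spread over chromosomes as the loci were. Chromosome 11 held 324 of them, 12.4%, and 7.47% of the loci. Of POL2 peaks at gene ends on chromosome 11, 50.9% (46.9 to 54.9) overlapped TAF9B, beside 40.5% (39.3 to 41.7) over all chromosomes. The X chromosome held 25 peaks, 0.96%, with 4.4% of the loci, and 17.4% (11.9 to 24.8) of its POL2 peaks at gene ends overlapped TAF9B. Chromosome 11 also held 9.85% of POL2 peaks at gene ends and the X chromosome 2.16%, so part of the difference was already in POL2. TAF9B-only peaks away from gene ends were spread in a like way, with 10.9% on chromosome 11 and 0.773% on the X chromosome. Those at gene ends were less uneven, with 8.05% on chromosome 11 and 2.15% on the X chromosome. Copy number and chromosome content of the HBG3 line were not measured here.

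The 2603 peaks touched 3122 rows of the expression table, at 2751 distinct loci. A row is a RefSeq gene, several genes can share a locus, and 2639 rows had a start of their own gene within 500 bp of a peak. Levels are in FPKM, fragments per kilobase of transcript scaled to the reads mapped, so that genes are compared per length. The depth of the libraries is unknown. At day 6 in WT, 89.1% (88 to 90.2) of the rows were above 1 FPKM, and 94.1% of those with their own start. The median was 14.1 FPKM. Rows with POL2 at an end but no TAF9B-POL2 peak also had a median of 14.1 FPKM, those at TAF9B-only peaks 3.27 and all rows 1.55. In the 11 libraries the share of rows above 1 FPKM stayed between 86.9% in WT ES cells and 90% in WT spinal column. These genes were thus mostly expressed in ES cells and newborn tissue too.

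More highly expressed genes carried a peak more often, as they did POL2. The share of rows with a TAF9B-POL2 peak was 1.92% for genes listed at 0 in day 6 WT and 4.23% for those up to 1 FPKM. It was 13.6% from 1 to 5, 23.3% from 5 to 20, 27.5% from 20 to 100 and 33.9% (31.1 to 36.9) above 100 FPKM. Among rows with POL2 at an end, however, the share with a TAF9B-POL2 peak was 40.8%, 44.6%, 41.7%, 42.3%, 41.5% and 43.4% in the same 6 classes, and all these intervals overlapped. Within the set the TAF9B score did not follow the level (rho -0.03 over 3122 rows) and the POL2 score followed it weakly (rho 0.17). Rows share libraries and loci, so these coefficients are descriptions.

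**Figure D3:**
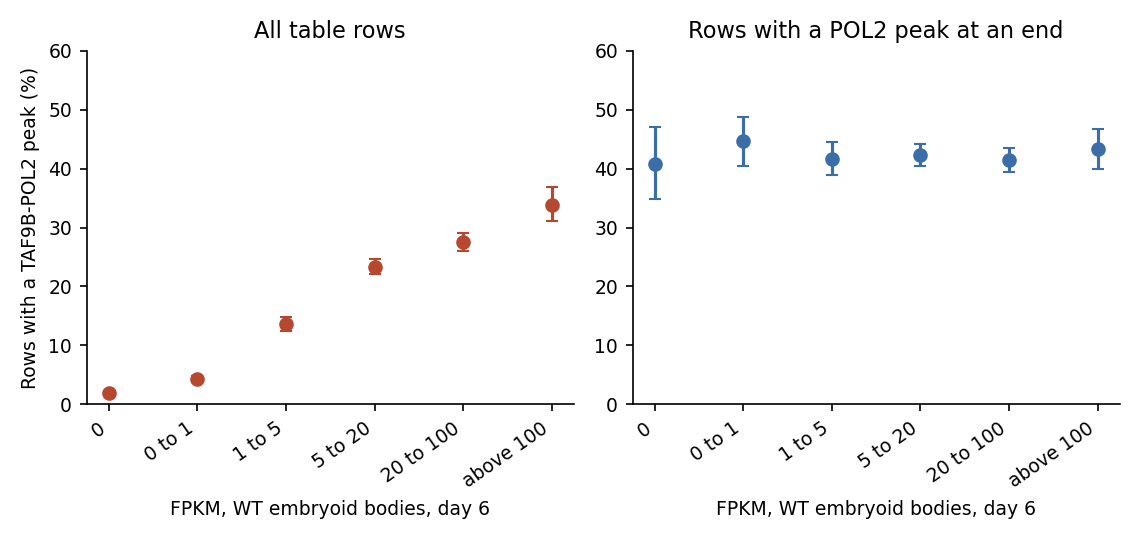
Share of rows with a TAF9B-POL2 peak (vertical axis, percent) by level in the day 6 WT library (horizontal axis, FPKM class), over all rows (left) and over the rows with POL2 at an end (right), with 95% Wilson intervals as bars. The share over all rows climbs from 1.92% to 33.9%, while the share among POL2 rows stays between 40.8% and 44.6%.

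The 10 peaks with the highest scores were at genes of ordinary level. Day 6 WT levels were 11.2 FPKM for Spag5, 6.02 for Asb3, 7.65 for Erlec1, 6.42 for Fbf1, 2.91 for A430033K04Rik and 1.65 for Slc2a6. The next 5 were Tars2, the mitochondrial threonyl-tRNA synthetase (score 499.6, 19.7 FPKM), Med23, a mediator subunit (496.1, 10.3 FPKM), and Ruvbl1, an ATPase of chromatin remodellers (474.5, 98.3 FPKM). Tmem231, a protein of the ciliary transition zone, followed (464.7, 8.79 FPKM), then 9530077C05Rik (456.7, 1 FPKM). None differed more than 2-fold between the day 6 libraries, where 9.93% of all rows lay below WT and 10.5% above it in the library labelled KO, and the furthest was Tmem231, at 8.79 FPKM in WT and 16.1 in the library labelled KO. Ccnc was at 19 and 17.6 FPKM.

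Gene lists gave the kinds of gene that carried these peaks, beside 13.5% of rows in the whole table (3122 of 23152) and 42.2% of the 7399 rows with POL2 at an end. A peak was found at 9 of 18 genes for TFIID subunits and their paralogs (50%, 29 to 71), and 14 of the 18 had POL2 at an end. Those with a peak were Taf10, Taf11, Taf12, Taf13, Taf3, Taf5, Taf8, Tbp and Tbpl1, the TBP-related factor. Taf10, a histone-fold subunit of both TFIID and SAGA, had the highest score (439.1). Taf3, which reads methylated histone H3, scored 242.8, Tbpl1 185.5 and Taf11 only 52. Taf10 was also the most highly expressed, with 119.5 FPKM in WT ES cells, 164.3 in day 6 embryoid bodies and 71.8 in spinal cord. The lowest at day 6 was Taf3, at 5.86. Between the day 6 libraries Taf10 went from 164.3 in WT to 127.7 in the library labelled KO and Tbp from 20.3 to 20.5. None of the 9 passed 2-fold, where 9.93% of all rows were lower and 10.5% higher, and 9 genes are too few to set against these shares. Tbpl1 came nearest, with 29.8 and 15.9 FPKM.

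Other parts of the transcription machinery also carried peaks, with intervals that overlapped that of the TFIID list. Of SAGA and ATAC subunits, 3 of 23 carried a peak (13%, 4.54 to 32.1), near the share of the whole table, with 14 of the 23 holding POL2 at an end. They were Tada3 (score 58.5), Supt20 (142.3) and Atxn7 (64.2), an adaptor, a core scaffold subunit and a deubiquitinase-module subunit. Of mediator subunits 10 of 33 carried a peak (30.3%, 17.4 to 47.3), with levels from 2.97 FPKM for Cdk19 to 47.1 for Med21 at day 6 WT. Of POL2 subunits and general factors 9 of 29 did (31%, 17.3 to 49.2), from 11.6 FPKM for Cdk7, the TFIIH kinase, to 130.2 for Polr2g. POL2 was at an end of 25 and 22 genes of these lists.

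Genes of basic metabolism, translation and division were also among those with a peak. Peaks were at 30 of 79 cytosolic ribosomal protein genes, from Rpl22 at 324.2 FPKM to Rps28 at 8623, and at 24 of 50 mitochondrial ribosomal protein genes, from Mrpl19 at 8.87 to Mrpl12 at 137.7. They were at 14 of 31 proteasome genes (Psmd11 81.0 to Psmb3 451.1 FPKM) and 10 of 20 aminoacyl-tRNA synthetases (Fars2 8.88 to Nars 117.5). Translation factors had 13 of 32 (Eif5 101.8 to Eef1a1 7582) and the respiratory chain and ATP synthase 17 of 50 (Uqcrc2 126.3 to Cox7c 1390). Splicing factors and hnRNPs had 15 of 47 (Prpf8 44.4 to Snrpg 1583) and replication and division genes 12 of 42, from Ccne2 at 2.95, whose peak was far from its own start, to Pcna at 341.4. POL2 was at an end of 77, 45, 27, 17, 26, 45, 41 and 22 genes of these lists, in the order given. Set against these counts, cytosolic ribosomal, respiratory and splicing genes lay somewhat below the 42.2% of all rows with POL2 and the other 5 lists above it. The lists are small and no intervals were taken for these shares, so no difference from 42.2% can be read from them. In none of these 8 lists did a gene with a peak differ more than 2-fold between the day 6 libraries, beside the 9.93% and 10.5% of all rows.

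Replication-dependent histones and host genes of small nucleolar RNAs had peaks at 22 of 44 and 7 of 11, with POL2 at an end of 43 and 10. Histone mRNAs lack poly-A tails, so their levels in these libraries cannot be compared with those of other genes. Their day 6 WT levels ran from 0.248 FPKM for Hist1h1d to 23.3 for Hist3h2a. Of the 16 histone genes with a peak above 1 FPKM in a day 6 library, Hist3h2a was lower past 2-fold in the library labelled KO (23.3 and 8.81 FPKM) and 4 were higher, among them Hist1h4i (5.51 and 15.3). Of the 7 host genes with a peak, all above 1 FPKM, Snhg1 was highest (99.2) and Snhg7 lowest (3.78). Snhg6 (79.8 in WT and 184.2 in the library labelled KO) and Snhg12 (29.7 and 62.3) were higher past 2-fold and Snhg10 (5.64 and 2.75) lower. These counts are too small to set against the shares of all rows.

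Among genes that mark particular cells, the shares with such a peak were near that of the whole table or at 0. There was none among 12 pluripotency genes, 12 motor neuron genes, 12 mesoderm and vessel genes, 11 blood genes, 10 glial genes, 8 keratins or 8 skeletal muscle genes. A count of 0 of 12 leaves an interval up to 24.2%. Of these 7 lists, none had a gene with POL2 at an end either. General neuronal genes had 4 of 28 (14.3%, 5.7 to 31.5), Hox genes 5 of 39 (12.8%), Notch pathway genes 2 of 17 (11.8%) and neural progenitor genes 1 of 16 (6.25%), all with intervals that held the 13.5% of the whole table. POL2 was at an end of 13, 8, 9 and 4 genes of these lists.

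**Figure D4:**
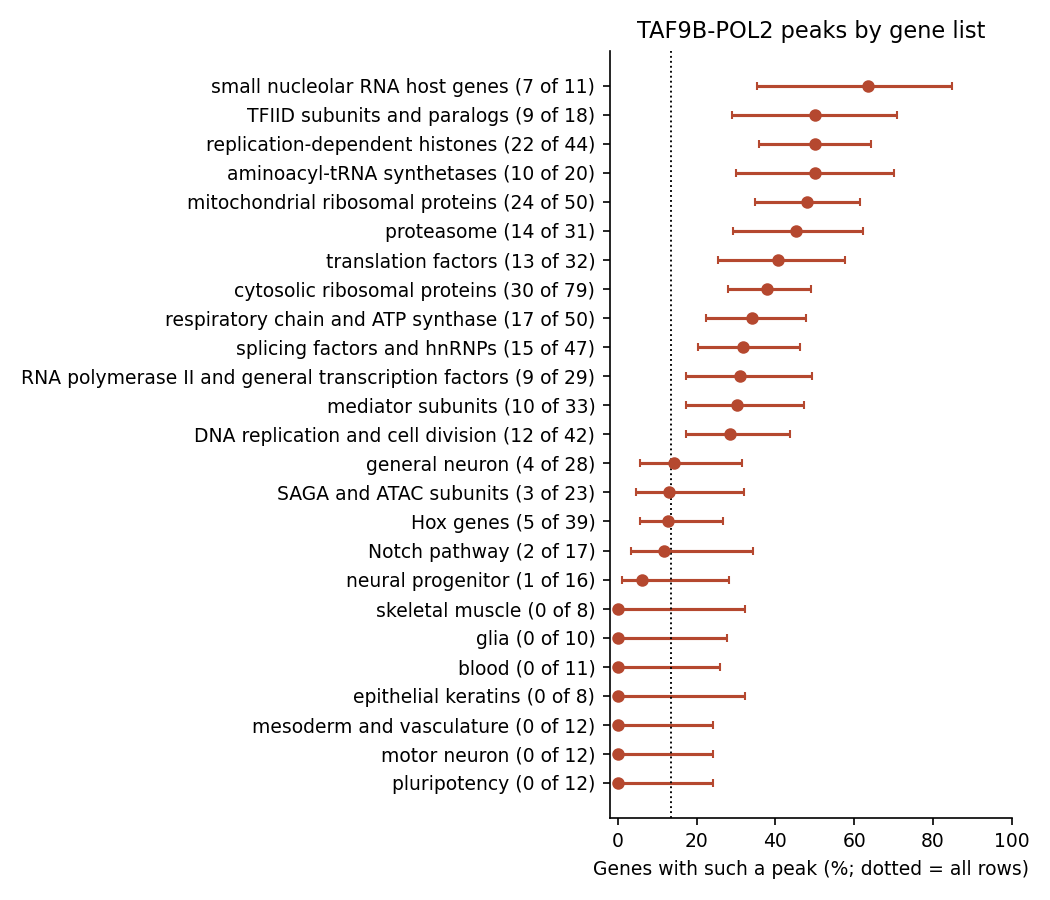
Share of the measured genes of each list that carried a TAF9B-POL2 peak at a gene end (horizontal axis, percent, with 95% Wilson intervals), for 25 lists (vertical axis); the dotted line is the share of all rows. Lists of housekeeping functions lie between 28.6% and 63.6%, SAGA and ATAC subunits at 13%, and lists of cell type markers between 0% and 14.3%.

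The 4 neuronal genes with a peak were Tubb3, Nefl, Tagln3 and Stmn3. Tubb3 had WT levels of 30.5 FPKM (ES), 32.8 (day 2), 14.4 (day 4) and 560.7 (day 6), and the libraries labelled KO had 30, 41.7, 18 and 41.3. It thus passed 2-fold, as lower in the library labelled KO, at day 6, and was slightly higher in that library at days 2 and 4. Nefl, a neurofilament subunit, was at 148.5 in WT and 26 in the library labelled KO at day 6, but ran the other way before, with 7.6 and 14.6 at day 2 and 3.86 and 13.7 at day 4. Stmn3, a microtubule regulator, was at 120.8 and 10.1. Tagln3, an actin-binding protein of neurons, was at 147.5 and 0.846, and was already lower at day 4, with 15.3 and 0.77. The median log2 ratio of the 4 at day 6 was -3.67, and that of all 28 genes of the list, most of them without such a peak, was -3.32. In spinal column all 4 were again lower in the library labelled KO, Tubb3 at 208.5 against 330.8 FPKM and Stmn3 at 243.6 against 268.2, and only Nefl passed 2-fold, at 129.8 against 279.9.

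Olig2, the bHLH factor of motor neuron progenitors, had a peak of score 135.4 at 229 bp from its start. It was at 59.9 FPKM in WT and 4.67 in the library labelled KO at day 4, and at 34.1 and 8.02 at day 6. Hes6 was at 25.8 FPKM in WT and 44.6 in the library labelled KO at day 2, at 15.6 and 10.9 at day 4 and at 53.2 and 16.1 at day 6. Lfng, a glycosyltransferase that modifies Notch, had a peak of score 52 and was at 13.6 and 5.4 at day 4 and 5.63 and 1.69 at day 6. In spinal column Olig2 was at 4.24 FPKM in WT and 2.21 in the library labelled KO, while Hes6 (24.6 and 39) and Lfng (8.19 and 10.5) were higher in the latter, short of 2-fold. In ES cells Olig2 (16.5 and 18.6), Hes6 (11.5 and 13.5) and Lfng (2.21 and 2.15) were close between the libraries.

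The Hox genes with a peak included Hoxb5, Hoxb8, Hoxb2 and Hoxa2, which set position along the body axis and answer to retinoic acid. At day 6 the levels in WT and in the library labelled KO were 291.2 and 12 for Hoxb5 and 145.0 and 9.99 for Hoxb8. They were 113.5 and 16.6 for Hoxb2 and 16.1 and 2.68 for Hoxa2. These 4, of the 5 Hox genes with a peak, were lower past 2-fold, where 9.93% of all rows were lower. The median log2 ratio was -2.78 for the 5 and -1.65 for the 31 genes of the whole list above 1 FPKM. The 4 named were below 1 FPKM in both ES libraries. Their peaks scored 50.8 at Hoxa2, 51.2 at Hoxb2, 93.6 at Hoxb5 and 128.5 at Hoxb8, beside the median of 104.9. The POL2 regions beneath were unusually wide, 59742 bp with a score of 58.2 under Hoxb5 and 6991 bp with a score of 3100 under Hoxb8. The Hoxb5 peak was 277 bp from an end of its deposited locus but 1194 bp from the nearest GENCODE start of the gene. The Hoxb8 peak had a transcript end and no start within 500 bp, and was 2792 bp from that gene's start.

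Between the libraries labelled KO and WT, most genes with these peaks differed little before day 4. A difference was counted when it passed 2-fold and the gene was above 1 FPKM in at least 1 library. In ES cells 10 of 2729 rows with a peak were below and 10 above WT in the library labelled KO, where 0.59% and 0.54% of all rows were. At day 2 it was 17 lower and 11 higher of 2746 rows, where 1.4% and 1.19% of all rows were. Among rows with their own start at a peak these were 1 lower and 3 higher in ES cells and 7 lower and 2 higher at day 2. Of the 10 lower and 10 higher rows in ES cells, 4 each way were listed at 0 in 1 library. At day 4, 106 of 2834 rows (3.74%) were lower and 109 (3.85%) higher, where 4.46% and 12.1% of all rows were. The share higher at day 4 was therefore below that of the whole table.

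At day 6 the rows with a peak were more often lower than higher in the library labelled KO. Of 2819 rows, 216 (7.66%, 6.74 to 8.7) were lower and 71 (2.52%, 2 to 3.16) were higher, where 9.93% and 10.5% of all rows were. Both shares were below the background, the higher one by more. The median log2 ratio was -0.08. Rows with POL2 at an end but no TAF9B-POL2 peak had similar shares, 8.58% (7.74 to 9.51) lower and 3.22% (2.71 to 3.83) higher, with overlapping intervals. Rows at TAF9B-only peaks had 11.4% and 11%, and rows with none of these peaks 11.8% and 19.7%. The scarcity of higher genes thus went with POL2 at a gene end, with or without a TAF9B-POL2 peak. Among the 2503 rows with their own start at a peak, 182 were lower and 44 higher. Small RNAs listed at 0 in 1 library made up 13 of the 71 higher rows and 5 of the 216 lower.

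**Figure D5:**
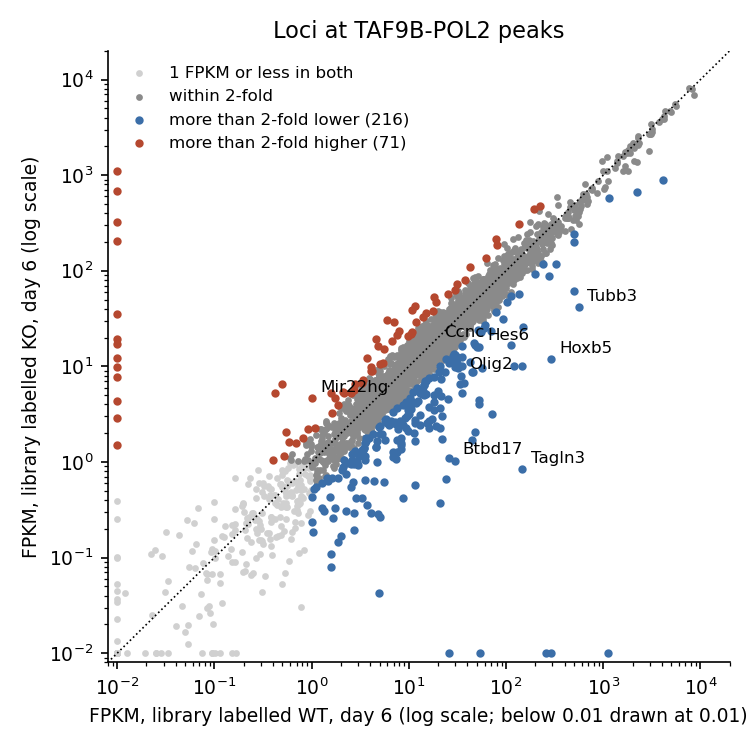
Levels of the rows with a TAF9B-POL2 peak in the day 6 WT library (horizontal axis, FPKM, log scale) and in the day 6 library labelled KO (vertical axis, FPKM, log scale), 1 point for each row, with the 216 rows more than 2-fold lower in blue and the 71 more than 2-fold higher in red. Values listed at or near 0 are drawn at the axis edges. The lower rows reach high WT levels, as for Tubb3 (560.7 and 41.3 FPKM), and most points lie along the diagonal.

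The share of genes that differed was also taken by peak score. In 4 equal groups of rows by TAF9B score, 7.16%, 7.23%, 6.35% and 9.87% lay below WT at day 6 and 2.87%, 1.81%, 3.03% and 2.4% above it. Of all rows, 9.93% lay below WT and 10.5% above it. The largest share below WT, in the group with the highest scores (70 of 709 rows), was thus about that of all rows. Its median log2 ratio was -0.13, beside -0.05 to -0.07 in the other 3. Differences between the groups were not tested. Markers of the makeup of the cultures moved with the label as well. At day 6 the ES cell marker Pou5f1 was at 198.0 FPKM in WT and 543.1 in the library labelled KO, all 12 pluripotency genes were above 1 FPKM with a median log2 ratio of 1.46, and the 9 motor neuron genes above 1 FPKM had a median of -5.48. Motor neuron markers were present in the WT library, with Mnx1 at 14.3 FPKM and Lhx3 at 14.9, but Pou5f1 and Nanog (62.5) were too. In bulk samples fewer cells of a type and less RNA per cell cannot be told apart, and the part of cell makeup in the differences was not tested.

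The genes with the largest differences at day 6 among rows above 1 FPKM in both libraries did not all have a peak at their own annotated start. The lowest ratios were at Btbd17 (29.5 in WT and 1.03 FPKM in the library labelled KO, log2 ratio -4.83), NM_016743, for which no symbol was matched (45 and 1.7), and Hoxb5. They were followed by Car14, a carbonic anhydrase (25.9 and 1.11), and Prdm8, a PR-domain regulator of neural development (47.4 and 2.07). The Btbd17 and Prdm8 peaks were 471 and 60 bp from their own starts. The Car14 peak was 9905 bp from that gene's start, at the neighbouring start of Aph1a. High ratios were at 2200002D01Rik (5.9 and 30.5), Mir22hg, the host of miR-22 (1 and 4.66), Snora16a (4.59 and 19.1) and Pfkp, a phosphofructokinase (11.6 and 42.4). Of these, only Mir22hg had a peak within 500 bp of its own start. The peaks of 2200002D01Rik and Pfkp were 9988 and 38961 bp from theirs, at the starts of Yif1b and Pitrm1.

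In spinal column more rows were higher than lower. Of 2844 rows, 126 (4.43%, 3.73 to 5.25) lay below WT and 213 (7.49%, 6.58 to 8.52) above it in the library labelled KO, where 8.54% and 9.05% of all rows were, and the median log2 ratio was 0.17 with 0.06 for all rows. With 1 FPKM added to both values 76 were lower. Tissue markers moved with the label too. In WT and in the library labelled KO, Myh3 of muscle was at 420.5 and 218.1 FPKM, Col2a1 and Acan of cartilage at 155.7 and 83.6 and at 8.1 and 4.46, and neuronal Map2 at 42.3 and 20.6, while the glial Mbp was at 57.1 and 54. Their part in the result was not tested. Of the TFIID genes, Taf10 was at 71 FPKM in WT and 112.9 in the library labelled KO, Taf12 passed 2-fold at 7.79 and 16.1, and Taf3 was at 2.54 and 1.66. Of the 30 cytosolic ribosomal protein genes with a peak, 14 were higher past 2-fold and none lower, as Rps27 (2622 and 6096) and Rps24 (1399 and 3523), although such genes can share reads with near-identical copies. Higher past 2-fold were also 6 of 24 mitochondrial ribosomal genes, 3 of 17 respiratory genes, with Cox7c at 668.3 and 1762, and 3 of 12 replication and division genes, again with none lower. The POL2 and TAF9B peaks were measured in cultured EB-MN, and whether they were present in this tissue is unknown.

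During differentiation of the WT cells, genes with a peak were more often higher than lower, and from ES cells to day 6 so were all rows. Over that span 570 of 2841 rows with a peak (20.1%) were higher and 245 (8.62%) lower, where 23.1% and 15.1% of all rows were. Rows with POL2 at an end but no TAF9B-POL2 peak were alike, with 20.5% higher and 9.97% lower. The tables for the 2 conditions were normalized separately by the authors, so these levels come from different tables. The steps between were smaller. From ES cells to day 2, 103 of 2756 rows were higher and 73 lower, where 5.28% and 7.95% of all rows were. From day 2 to day 4, 299 of 2836 were higher and 165 lower, where 15.7% and 13.7% of all rows were. From day 4 to day 6, 271 of 2856 were higher and 221 lower, where 17% and 9.98% of all rows were. In newborn spinal cord against ES cells, which share a table, the balance turned. There 1132 of 2920 rows (38.8%) were lower and 546 (18.7%) higher, where 35.7% and 30.4% of all rows were. Rows with POL2 at an end but no TAF9B-POL2 peak had 39.1% lower and 19.5% higher.

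The limits of the rule passed through similar peaks. The midpoints nearest to 500 bp on the inside were at Slf2 with 4930414N06Rik (500 bp, score 65.7), Ncapd3 (499 bp, 112.6) and Bcl7c with Mir762 (496 bp, 129.1). Those just outside were at Pcyox1 (501 bp, 64.2), Myh10 (503 bp, 240.6) and Dmxl1 (505 bp, 107.5). The smallest overlaps with POL2 that were counted were at Lman2 (1 bp), Rps26 (4 bp) and Trim45 (7 bp). The TAF9B peaks at Rbm45, at Kif9 with Klhl18 and at Dusp28 missed a POL2 peak by gaps of 1, 2 and 6 bp. The peaks on either side of a limit did not separate by score, which was 59.1, 78.9 and 90.6 for the 3 smallest overlaps and 123.8, 83.1 and 89.6 for the 3 narrowest gaps.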

How the data were processed

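The deposited peak lists hold 1 row per peak with a score, an unlabelled number that the authors obtained with MACS after mapping reads with Bowtie to mm9. Its scale, the version of MACS and whether the IgG library served as control are not given in the sources used here. The deposited FPKM values were made by the authors with TopHat and Cuffdiff on RefSeq genes. Their fold-change and p-value columns compare the 2 libraries of each table and were not used. Peaks, loci and GENCODE starts share build mm9. On chromosomes of the reference sequence were 10402 of 10415 TAF9B peaks, 8609 of 8620 POL2 peaks and 23025 of 23152 loci, with 0 past a chromosome end. Names came from RefSeq accessions, matching 22828 of 23152 rows. Log2 ratios had no pseudocount. The members, gene lists and motifs were chosen with earlier results of these data known. Named genes are the study's ChIP examples, the 10 highest scores, the 5 largest differences each way at day 6, the highest and lowest level in each list (all where 6 or fewer), the peaks at the limits and Taf9b, of which 2 genes are not reported here. Others, such as the peaks with starts on both strands, the peaks at transcript ends only the histone and host genes past 2-fold and the ribosomal genes in spinal column, were named after their values were seen. Sequences stop 30 bases after the start to keep transcribed bases short. Classification and ratios were tested on simulated data. Python 3.11.15, pandas 2.3.3, numpy 2.4.6, scipy 1.17.1 and matplotlib 3.10.9 were used.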

Additional observations from a re-analysis of the deposited data

How the results depend on the processing

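Of 76 alternative values, 60 stayed within the tolerance set for them, 16 moved and none changed direction. A limit of 250 bp gave a median score of 109.2 and a median width of 257 bp, and a limit of 1000 bp a share of 93.8% at annotated starts. TAF9B scores of at least 100 left 1399 peaks with a median score of 157.1 and a width of 303 bp. POL2 scores of at least 100 gave 90.2% of rows above 1 FPKM and a median of 16.2 FPKM, and 73.7% of rows were above 5 FPKM. Rows above 1 FPKM in both libraries gave 6 lower and 5 higher in ES cells and 8 lower and 5 higher at day 2. With 1 FPKM added, 7 were higher at day 2 and 76 lower in spinal column. With their own start only, 44 were higher at day 6. The cause was not tested where a value moved.

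No paired analysis over the culture stages was made, and each condition has 1 library. Differences between libraries therefore have no replicate check, the depth of the FPKM libraries is unknown, and intervals cover counting error only. The TAF9B antibody gave 1 library, and peaks below a score of 50 were not listed.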
